A study of Drosophila melanogaster with 6 samples.

Results

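The Hippo growth control pathway genes described here are 10 genes of Drosophila melanogaster, taken by their symbols from a table of 15741 genes: hpo, wts, yki, ex, Mer, kibra, ft, ds, fj and crb. All 10 were found, each in 1 row. They were measured in RNA of whole wandering larvae of the third instar grown at 25 °C, with 1 library for each of 6 groups and a pool of more than 20 animals in each library. The groups combine 3 genotypes (wild type, Cmi RNAi depletion and Trr RNAi depletion) with 2 stages, blue gut and clear gut, the earlier and the later part of wandering. Both depletions used an shRNA under the GawB69B Gal4 driver, which is known to be active in ectodermal epithelia such as the imaginal discs, so that a whole larva also holds tissue in which the driver may be silent. The labels state neither the wild-type stock nor whether it carried the driver. Cmi, encoded by Lpt, and the methyltransferase Trr work together in one COMPASS-like complex, which marks histone H3 at enhancers.

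The Hippo pathway limits organ size in flies by holding back the transcriptional co-activator Yki. The kinase Hpo activates the kinase Wts, and Wts phosphorylates Yki, which is then kept out of the nucleus. Upstream, the large cadherins Ft and Ds and the apical proteins Crb, Ex, Mer and Kibra report on cell contact and polarity. In the nucleus Yki acts with the DNA-binding protein Sd, and in growing wing discs ex, kibra, Mer and fj are themselves known targets of Yki. Ncoa6, a subunit of the Trr complex, is known to bind Yki in flies.

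Depth was similar across libraries, at 23.1 to 25.0 M reads on genes, as recovered from the steps of the values. Levels are RPKM, reads per kilobase of gene length and per M reads on genes. The targeted genes were examined first. Lpt stood at 4.44 RPKM under Cmi depletion against 5.57 in wild type at blue gut (0.797 times, 0.705 to 0.9003), and at 5.11 against 6.66 at clear gut (0.767 times, 0.687 to 0.856). Against wild type, the gene trr went against its label at blue gut: the library labelled Trr depletion held 3.60 RPKM and wild type 2.92, or 1.23 times (1.10 to 1.38). At clear gut the values were 4.76 and 6.19, or 0.769 times (0.705 to 0.838). Cmi depletion held 4.49 RPKM of trr at blue gut and 5.925 at clear gut. The library labelled Trr depletion was thus below Cmi depletion at both stages, and at blue gut wild type was the lowest library. Intervals of a ratio here are exact 95% intervals that cover counting error only. No group has a replicate, so within a stage or a genotype no test can be made.

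By level, yki and hpo were the most abundant of the 10 and the 2 cadherin genes the least. Over the 6 libraries the mean was 32.6 RPKM ± 4.53 (SD, n = 6 libraries of different groups) for yki, 30.7 ± 12.4 for hpo, 17.9 ± 10.3 for crb, 16.8 ± 1.45 for Mer and 15.3 ± 5.67 for ex. It was 13.6 ± 3.86 for fj, 10.6 ± 3.48 for wts, 8.18 ± 3.45 for kibra, 6.77 ± 3.51 for ds and 4.04 ± 1.89 for ft. In this order, only the step from hpo to crb exceeded the SD of both neighbours. The other 8 neighbouring pairs had means within 1 SD of each other, although fj was above wts, wts above kibra and ds above ft in all 6 libraries. Tests covered the 11467 genes whose mean reached 1 RPKM, and in this set yki stood at the 78.7th percentile and ft at the 20.6th. All 10 passed this filter, and none was below 2.11 RPKM in any library.

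**Figure D1:**
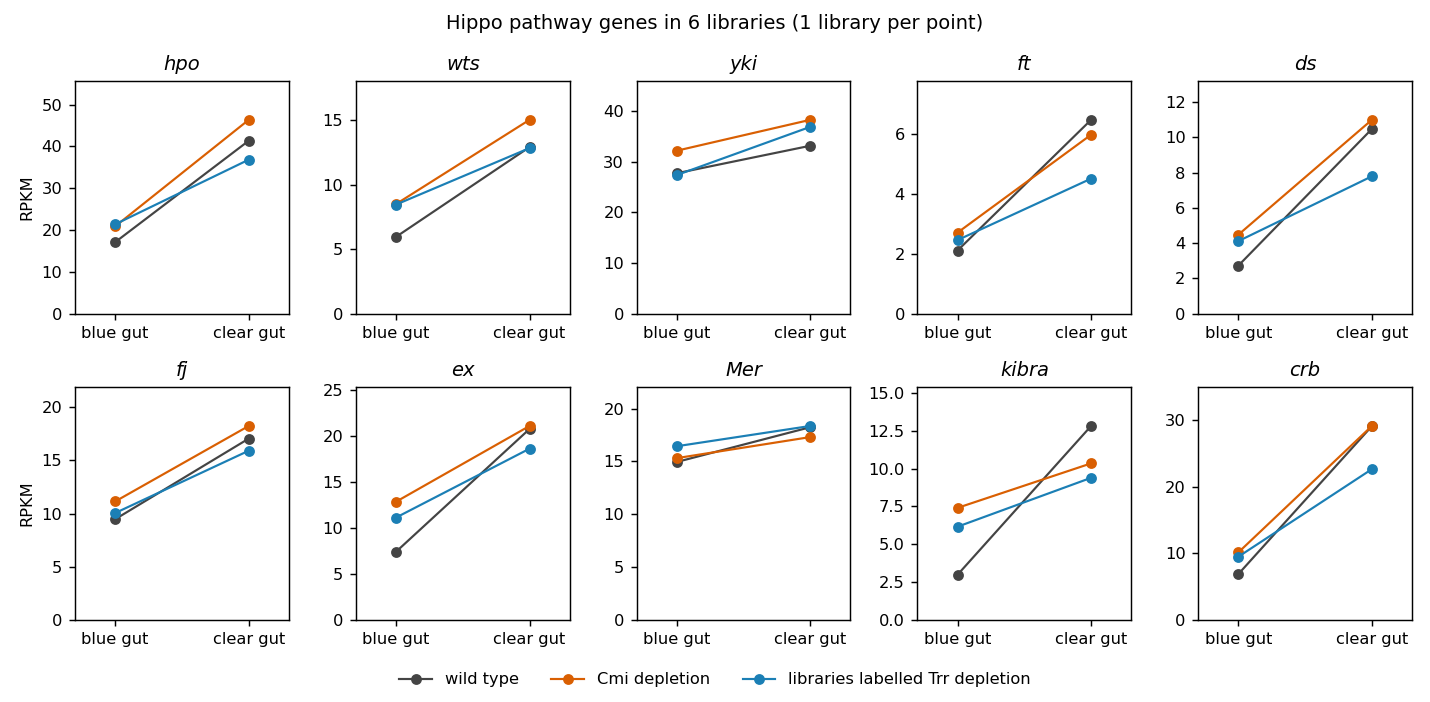
RPKM (y axis, from 0, scaled per gene) of the 10 Hippo pathway genes at blue gut and clear gut (x axis), with 1 library per point and a line joining the libraries of a genotype; the blue points and lines are the libraries labelled Trr depletion. For each gene the 3 clear gut libraries lie above the 3 blue gut libraries, by 12.5 RPKM at crb and by 0.87 RPKM at Mer.

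The first comparison was of the stages, clear gut against blue gut. Of the 10 genes, 7 rose at clear gut and none fell: the kinase genes hpo and wts, the cadherin genes ft and ds and their modifier fj, and the apical genes ex and crb. The largest log2 change was that of crb, at 2.39-fold to 4.24-fold within a genotype. The effector gene yki and the scaffold gene Mer stood at most 1.35 times higher within a genotype and were not called. The gene kibra was not called either, with a log2 change of 0.92 and the highest ratio of the 10 in wild type, 4.30. The test was limma on log2(RPKM + 1) with genotype and stage as additive terms and Benjamini-Hochberg adjustment over all genes tested, and it called 24.2% of all genes higher and 11.1% lower. The residual of this fit is the extent to which the stage difference varies between genotypes, not the spread between pools. In all 10 genes the lowest clear gut library was above the highest blue gut library, against 38.5% of all genes tested. The median log2 change was 0.92 over the 10 and 0.15 over all genes.

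The cadherin branch comes first in the pathway. Ds is the ligand and Ft its receptor on the neighbouring cell, and Fj is a Golgi kinase that phosphorylates both. The gene ds (gene 33245, dm6 chromosome 2L, 640013 to 714983) measured 2.72 RPKM in wild type, 4.48 in Cmi depletion and 4.12 in the one labelled Trr depletion at blue gut, then 10.5, 11.004 and 7.80 at clear gut. The groups of the stages do not overlap, wild type was the lowest library at blue gut, and the library labelled Trr depletion was the lowest at clear gut. Its log2 change was 1.18 (SE 0.20, adjusted p = 0.0158, limma), higher in 3 of 3 genotypes.

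The receptor gene ft (gene 33627, chromosome 2L, 4198404 to 4221796) measured 2.11, 2.71 and 2.46 RPKM at blue gut, then 6.48, 5.98 and 4.51 at clear gut, in the same order of genotypes. As at ds, the library labelled Trr depletion was the lowest at clear gut, while here wild type was the highest. The log2 change of ft was 0.95 (SE 0.17, adjusted p = 0.0176, limma). The level of ds stood at 1.29 to 1.84 times that of ft in RPKM, so that the ligand gene was above the receptor gene in every library.

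The modifier gene fj (gene 37089, chromosome 2R, 18232761 to 18236311) changed less and more evenly. It measured 9.46, 11.1 and 10.045 RPKM at blue gut, then 17.0, 18.2 and 15.9 at clear gut. Its ratio between the stages was 1.80 in wild type, 1.64 in Cmi depletion, and 1.58 under the label Trr depletion, with counting intervals that overlap. The log2 change was 0.69 (SE 0.12, adjusted p = 0.0158, limma), and the call ends with median-ratio scaling (adjusted p = 0.0549) and without the libraries labelled Trr depletion (adjusted p = 0.0632).

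Among the apical genes, crb and ex rose, and kibra and Mer were not called. Crb is the transmembrane determinant of the apical membrane, and its intracellular part recruits Ex. The gene crb (gene 42896, chromosome 3R, 24295078 to 24314541) measured 6.87, 10.1 and 9.49 RPKM at blue gut, then 29.1, 29.2 and 22.7 at clear gut. The gap between the stages, 12.5 RPKM, was wider than the range within either stage. Its log2 change of 1.52 (SE 0.18, adjusted p = 0.0074, limma) was the largest of the 10.

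Ex is a FERM-domain protein that binds Yki and works upstream of Hpo. The gene ex (gene 33218, chromosome 2L, 431227 to 448701) measured 7.41, 12.9 and 11.1 RPKM at blue gut, then 20.8, 21.1 and 18.6 at clear gut. At clear gut the 3 libraries were close together, and at blue gut wild type stood apart as the lowest. The log2 change was 0.91 (SE 0.19, adjusted p = 0.0229, limma), and the call ends with median-ratio scaling (adjusted p = 0.0695).

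The level of ex carries a further uncertainty. Its exons share 448 bases, 6.71% of their length, with those of crq, a scavenger receptor gene on the other strand that measured 67.1 to 114 RPKM. The protocol does not say that libraries kept strand. If the reads of crq were spread evenly over its length, those on the shared bases would equal 30.8% to 60.8% of the reads of ex. With that number of reads taken off, an alternative chosen after seeing the data, the ratio of ex between the stages was 4.53 in wild type, 1.80 in Cmi depletion, and 2.16 under the label Trr depletion, against 2.81, 1.64 and 1.67 as deposited. This removal counts every such read fully to ex. Counting every read fully gives whole numbers, but reads recovered for ex were off whole numbers in 3 of the 6 libraries. With shared reads split equally between a pair of genes, fewer are counted to ex and the removal is too large. The ratios would then lie nearer to those as deposited. For hpo, which shares 130 exon bases with Rep on the other strand, the same removal moved no ratio outside its counting interval.

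Kibra is a WW-domain scaffold that works with Ex and Mer at the apical membrane. The gene kibra (gene 41783, chromosome 3R, 14697689 to 14724261) measured 2.98, 7.40 and 6.16 RPKM at blue gut, then 12.8, 10.3 and 9.39 at clear gut. Wild type held both the lowest and the highest value of the 6 libraries. The ratio between the stages was 4.30 (3.82 to 4.85) in wild type, 1.40 (1.28 to 1.53) in Cmi depletion and 1.53 (1.39 to 1.68) in the libraries labelled Trr depletion. With a log2 change of 0.92, close to those of ex and ft, and an SE of 0.31, kibra did not pass (adjusted p = 0.0779, limma, 95% interval 0.11 to 1.73).

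Mer, the fly Merlin, is the other FERM-domain protein of this group. The gene Mer (gene 32979, chromosome X, 19689697 to 19693500) was the most even of the 10, with 14.9, 15.3 and 16.4 RPKM at blue gut, then 18.2, 17.3 and 18.4 at clear gut. Its highest library was 1.23 times its lowest. The log2 change was 0.20 (adjusted p = 0.248, limma, 95% interval -0.10 to 0.49) and turns to -0.02 with median-ratio scaling. The ratio of ex to Mer in RPKM was 0.495 to 0.840 at blue gut and 1.02 to 1.22 at clear gut.

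In the kinase cassette, hpo (gene 37247, chromosome 2R, 19493996 to 19496856) measured 17.1, 20.9 and 21.4 RPKM at blue gut, then 41.4, 46.4 and 36.8 at clear gut. It encodes the Ste20-like kinase that gives the pathway its name. The stages were 15.5 RPKM apart at their closest. Its log2 change was 1.03 (SE 0.14, adjusted p = 0.00939, limma).

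The gene wts (gene 43651, chromosome 3R, 30789625 to 30806619), which encodes the kinase that acts directly on Yki, measured 5.95, 8.49 and 8.45 RPKM at blue gut, then 12.9, 15.0 and 12.8 at clear gut. Both depletions stood above wild type at blue gut, and Cmi depletion alone at clear gut. The log2 change of wts was 0.77 (SE 0.15, adjusted p = 0.0198, limma). The call ends with median-ratio scaling (adjusted p = 0.0574) and without the libraries labelled Trr depletion (adjusted p = 0.0506).

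The effector yki (gene 37851, chromosome 2R, 24065975 to 24068485) measured 27.7, 32.2 and 27.4 RPKM at blue gut, then 33.2, 38.3 and 36.9 at clear gut. The stages were separated by 0.983 RPKM, less than the range within either stage. Its log2 change was 0.30 (SE 0.11, adjusted p = 0.0963, limma, 95% interval 0.01 to 0.59). Relative to its kinases, yki stood lower at clear gut. In RPKM, the 3 blue gut libraries held 1.28 to 1.62 times as much yki as hpo, and the 3 clear gut libraries 0.802 to 1.00 times. Against wts the level of yki was 3.24 to 4.66 times at blue gut, and 2.55 to 2.88 times in the later libraries. These ratios within a library are unchanged by a scaling factor per library, but can change with quantile normalization. The stages do not overlap in either ratio. The ratios were not tested, and the share of other gene pairs that separate likewise was not counted. The ratio of hpo to wts moved less, from 2.46 to 2.87 at blue gut to between 2.87 and 3.20 at clear gut.

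How firmly the 7 calls stand depends on the scaling and on wild type. The median log2 change over all genes was 0.15 as deposited and -0.05 with median-ratio scaling. Under that scaling limma called 4 of the 10, crb, hpo, ft and ds, against 11.7% of all genes. Quantile normalization left 7 called, against 18.5%. Without the wild-type library of either stage limma called 0 of the 10 and 0 of all genes. Both fits gave the same log2 changes, since the remaining wild-type library then has no part in them. All 10 were above 0, which follows from the higher clear gut values in both depletions and is no separate check.

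The stage difference was also read within each genotype. In wild type the ratio ranged from 1.196 at yki to 4.30 at kibra, and for 8 of the 10 it reached 1.5, against 31.4% of all genes. In Cmi depletion the range was 1.13 at Mer to 2.88 at crb, with 7 of the 10 past 1.5-fold against 30.2%. In the libraries labelled Trr depletion it was 1.12 at Mer to 2.39 at crb, with 8 of the 10 against 21.2%. With median-ratio scaling these counts were 8, 4 and 4, and 8 genes remained higher at clear gut in Cmi depletion, and 9 under the label Trr depletion. Shares of all genes under that scaling were not counted, so these counts have no background beside them. As deposited, the counting interval lay above 1 for all 10 genes in each genotype. The share of all genes with such an interval was not counted, but 56.1%, 72.1% and 60.7% were higher by any amount. With median-ratio scaling the intervals of yki and Mer in wild type, yki in Cmi depletion and Mer under the label Trr depletion held 1. That of Mer in Cmi depletion then lay below 1 (0.813 to 0.970).

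**Figure D2:**
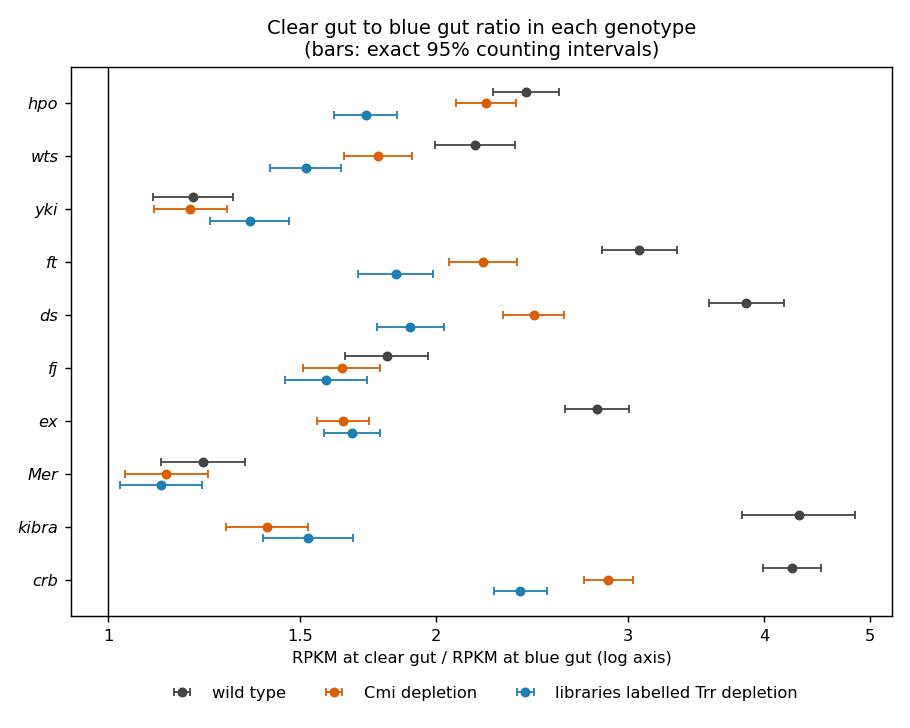
Ratio of RPKM at clear gut to RPKM at blue gut (x axis, log scale) for the 10 genes (y axis) in wild type, Cmi depletion and the libraries labelled Trr depletion, with exact 95% counting intervals as bars and a line at 1. Wild type has the highest ratio at every gene but yki, and kibra shows the widest distance between wild type (4.30) and the depletions (1.40 and 1.53).

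In 9 of the 10 genes, all but yki, the ratio was higher in wild type than in both depletions, as deposited and with median-ratio scaling. Over all genes tested the share was 36.9%, or 43.0% with that scaling. Among the 2777 genes that limma called higher at clear gut it was 67.8%. The distance was wide at kibra, ds, crb and ex and small at fj and Mer. In 9 of the 10, wild type was also the lowest of the 3 blue gut libraries, against 50.8% of all genes and 71.3% of those called higher. As deposited, wild type was the lowest at clear gut in 1 and the highest there in 2, positions not counted over all genes. With median-ratio scaling, 1 of the 10 stood above wild type at clear gut in Cmi depletion and 0 under the label Trr depletion. At blue gut, 9 and 7 did under that scaling. Shares of all genes above wild type after scaling were not counted at either stage. Each group holds 1 library. A smaller stage difference in the depletions, a low wild-type library at blue gut and a high one at clear gut cannot be told apart.

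Each depletion was then set against wild type over both stages. Limma called none of the 10 in any genotype comparison, and none had an unadjusted p below 0.05. Over all genes limma called 0.0872% higher and 0.0174% lower in Cmi depletion, while the figures for the libraries labelled Trr depletion were 0.0523% and 0.0%. The log2 change in Cmi depletion ranged from -0.02 at Mer to 0.40 at kibra, with a median of 0.23 against 0.13 over all genes. In the libraries labelled Trr depletion it ranged from -0.14 at ft to 0.22 at wts, with a median of 0.07 against 0.15. The sign of this last median depends on the scaling: it was -0.10 under median-ratio scaling, and quantile normalization gave -0.04. The 95% interval was -0.60 to 1.39 for kibra in Cmi depletion and -0.70 to 0.41 for ft in the libraries labelled Trr depletion, so that neither direction is left out of these intervals.

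At blue gut, all 10 genes were higher in Cmi depletion than in wild type, against 57.8% of all genes, with ratios of 1.02 at Mer to 2.48 at kibra. Of these, kibra, ex and ds passed 1.5-fold, 3 of the 10 against 15.5% of all genes. Their ratios were 2.48 (2.19 to 2.82), 1.74 (1.61 to 1.87) and 1.64 (1.504 to 1.80). In the library labelled Trr depletion 9 were higher, against 71.1%, and the same 3 genes passed 1.5-fold, against 14.0%. Kibra stood at 2.07 (1.81 to 2.36), ds at 1.51 (1.38 to 1.66) and ex at 1.504 (1.39 to 1.62) there. With median-ratio scaling 9 of the 10 were higher in Cmi depletion and 7 in the library labelled Trr depletion. Under that scaling kibra alone passed 1.5-fold in the latter library. The shares of all genes given here for blue gut are as deposited, and those after scaling were not counted. Both comparisons use the same wild-type library.

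At clear gut, as deposited, 7 of the 10 were above wild type in Cmi depletion, a share close to the 68.0% of all genes, and the ratios of the 10 ran from 0.807 at kibra to 1.16 at wts. In the library labelled Trr depletion 2 of the 10, yki and Mer, were above wild type, against 65.5% of all genes. The cadherin genes and crb were among the lowest there, with ft at 0.697 (0.656 to 0.740), ds at 0.744 (0.704 to 0.785), crb at 0.778 (0.748 to 0.810) and kibra at 0.733 (0.677 to 0.792). As deposited, none of the 10 passed 1.5-fold in either depletion at clear gut, a size reached by 16.7% of all genes upward and 10.4% downward under Cmi depletion, and by 17.7% and 5.15% in the library labelled Trr depletion. Directions at clear gut depend on the scaling: with median-ratio scaling 1 of the 10 was above wild type in Cmi depletion and 0 in the other library, with median ratios of 0.890 and 0.793. The 68.0% and 65.5% of all genes are as deposited, and the shares above wild type after scaling were not counted. Under that scaling 3 of the 10 passed 1.5-fold downward in the library labelled Trr depletion, ft (0.618), kibra (0.650) and ds (0.660), against 8.62% of all genes. By their counting intervals as deposited, 2 of the 10 in Cmi depletion (kibra and ft) were above wild type at blue gut and below it at clear gut, against 7.45% of all genes. In the libraries labelled Trr depletion 6 were (hpo, ex, kibra, ft, ds and crb), against 9.93%. The opposite order, seen in none of the 10, was held by 8.65% and 4.81% of all genes. The contrast between the depletions depends on the scaling: with median-ratio scaling, applied to these intervals after seeing the data, 6 of the 10 met the rule in each depletion, against 17.7% and 12.8% of all genes. In Cmi depletion ex, ds, crb and fj were added, and under the label Trr depletion wts was added and ft was lost.

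Salivary gland markers differed with genotype too. The summed level of the 6, all glue protein genes, at blue gut was 21790 RPKM in wild type, 5553 in Cmi depletion and 8916 under the label Trr depletion, then 16977, 2455 and 13497 at clear gut. Wild type was the highest at both stages, and at blue gut it was the lowest for 9 of the 10 Hippo genes. In Cmi depletion the median log2 change of the 6 was -2.16, with an unadjusted p below 0.05 for 4 of them, but limma called none after adjustment. The part of these markers in the differences of the Hippo genes was not tested.

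**Figure D3:**
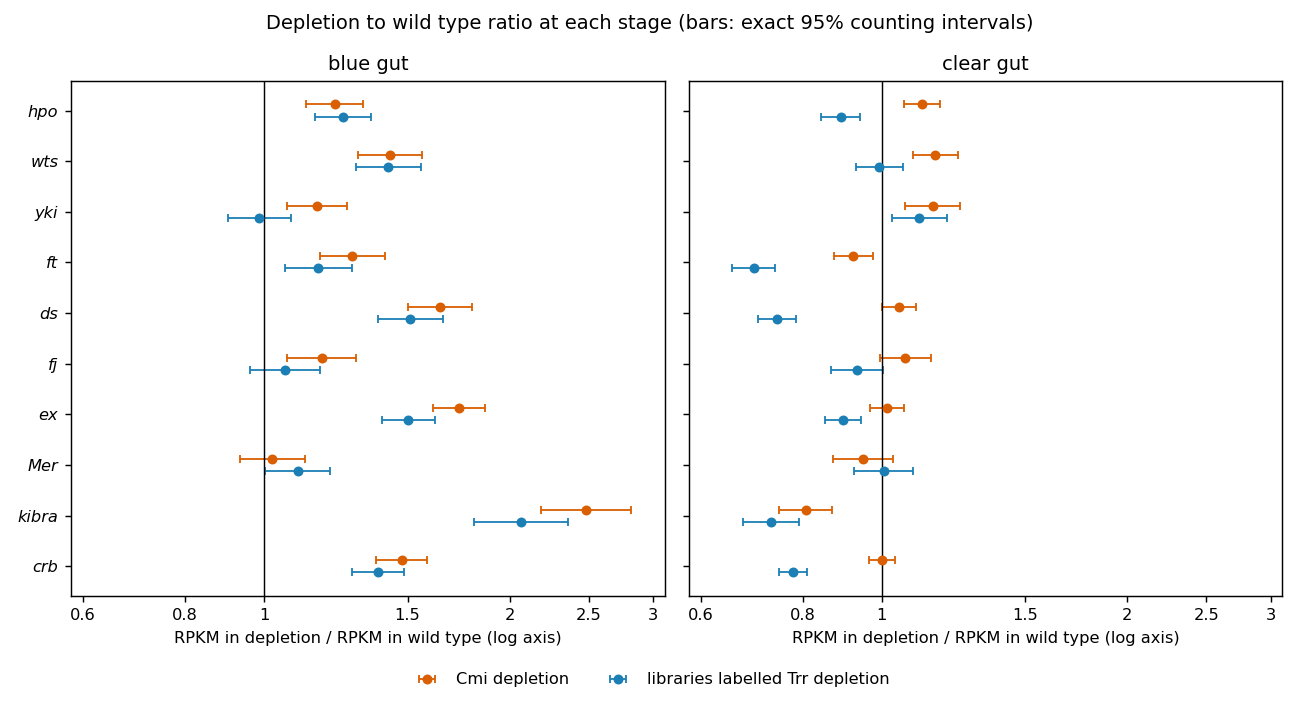
Ratio of RPKM in each depletion to RPKM in wild type (x axis, log scale) for the 10 genes (y axis), at blue gut (left) and clear gut (right), with exact 95% counting intervals as bars and a line at 1. At blue gut nearly all points lie at or above 1, and at clear gut the points of the library labelled Trr depletion lie below 1 for 8 of the 10 genes, down to 0.697 at ft.

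The depletions were also set against each other. The log2 change of the libraries labelled Trr depletion against Cmi depletion ranged from -0.27 at ds to 0.09 at Mer, with a median of -0.17 against 0.03 over all genes, and limma called none of the 10 and 0.0% of all genes. At clear gut 9 of the 10 were lower in the library labelled Trr depletion, with ds at 0.709 (0.672 to 0.747) and ft at 0.755 (0.710 to 0.802) times Cmi depletion, while 44.5% of all genes were higher there. Mer was the exception, at 1.06 (0.976 to 1.153).

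Over the 6 libraries the 10 genes followed similar courses. The 45 pairs had Pearson correlations of 0.67 to 0.99 with a median of 0.93, on log2(RPKM + 1) over 6 libraries that share stage and genotype, which is a description only. Taking off each gene's own mean, wts, ex and ft lay nearest to the mean course of the other 9, with root mean square differences of 0.09, 0.10 and 0.12 on the log2 scale. Mer (0.40), crb (0.38) and yki (0.34) lay farthest. Mer and yki varied the least of the 10 between the stages, and crb had the largest change. Outside the 10, the nearest courses among 8519 genes averaging 5 RPKM or more were those of H (0.03), the Notch pathway co-repressor gene Hairless, and of CG9795, sick, inc and alpha-Adaptin (0.03 to 0.04).

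The wider pathway was read from lists of other genes in 4 roles, and in each of them most tested genes were called higher at clear gut. Of 5 partners of the kinases, limma called 5 higher at clear gut, among them msn (log2 change 1.32) and hppy (0.82), related kinases that can activate Wts, mats (1.26), the Mob-family co-activator of Wts, and Tao (0.76), the kinase that activates Hpo. Of the 29 upstream regulators that were measured, 20 were called higher and none lower, with a median of 0.69. The largest were Sik3 (1.63), a salt-inducible kinase that acts on the scaffold Sav, dco (1.33), the casein kinase that phosphorylates Ft, mop (1.32), the phosphatase-domain protein Myopic, and ed (1.29), the adhesion protein Echinoid. In mats the 3 clear gut libraries spread widely, with 76.2 RPKM in wild type, 118 in Cmi depletion and 66.0 in the library labelled Trr depletion.

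Of 10 nuclear partners of Yki, 9 were called higher and none lower, with a median of 0.88. They were led by hth (1.48), a homeodomain partner of Yki, hipk (1.23), a kinase that promotes Yki activity, mask (1.07), a co-factor of Yki, and tsh (1.04), a zinc finger partner. The DNA-binding partner sd, named outside the rule after its values were seen, measured 8.97, 15.6 and 14.0 RPKM at blue gut, then 25.6, 25.5 and 20.4 at clear gut, with a log2 change of 0.87 (adjusted p = 0.0356, limma). Of 14 tested genes known as targets of Yki, 8 were called higher and none lower, with a median of 0.54. Those with the largest changes were wg (1.21), the Wnt ligand, dlp (1.03), a glypican, th (0.86), the inhibitor of apoptosis Diap1, and Ser (0.85), a Notch ligand. In all 4 lists limma called none in any genotype comparison.

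These counts fall with the scaling and with the libraries used. With median-ratio scaling limma called 3 of the 5 kinase partners, 9 upstream regulators, 3 partners of Yki and 4 targets. Without the libraries labelled Trr depletion the counts were 4, 11, 5 and 5. Calls over all genes fell as well, from 24.2% to 11.7% and 13.6%.

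**Figure D4:**
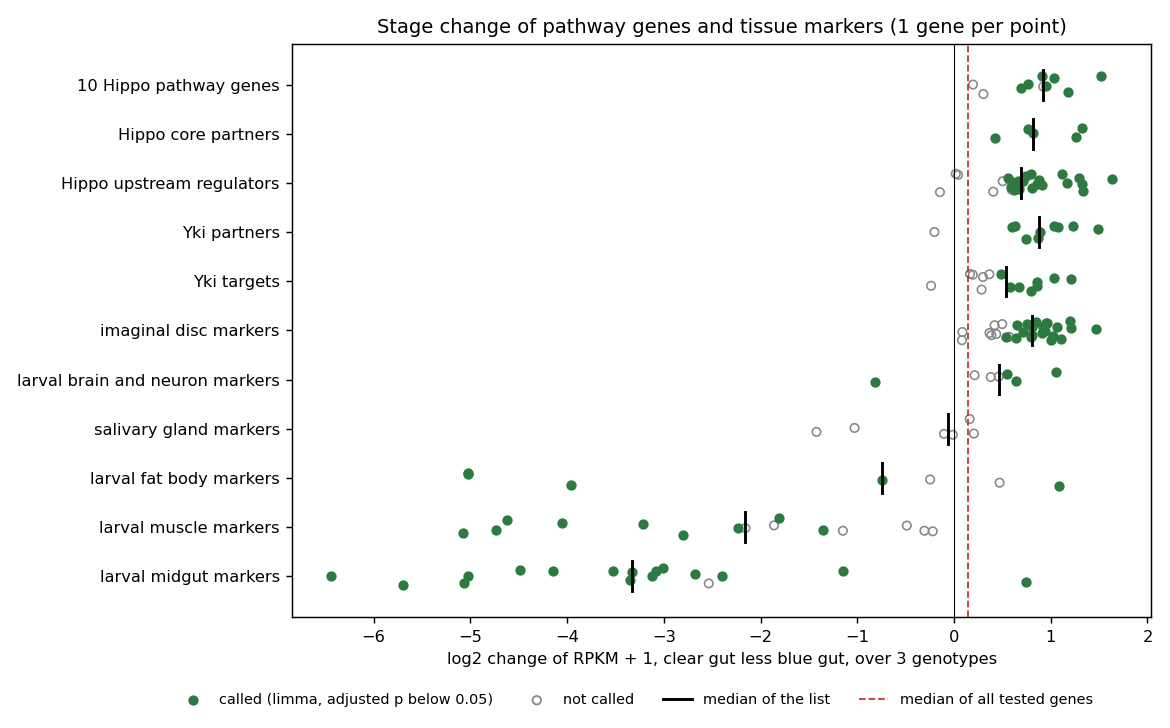
Log2 change of RPKM + 1 from blue gut to clear gut over the 3 genotypes (x axis) for the 10 Hippo pathway genes, 4 further lists of pathway genes and 6 lists of tissue markers (y axis), with 1 gene per point, filled where limma called it, a bar at each list's median and a dashed line at the median of all tested genes (0.15). Pathway genes (median 0.92 for the 10) sit beside the imaginal disc markers (0.81), and the midgut markers (-3.33) and muscle markers (-2.16) lie far to the left.

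Markers of tissues moved with the stage as well. Of 30 imaginal disc markers tested, 22 were called higher and none lower, with a median of 0.81, against 24.2% of all genes. The count was 14 with median-ratio scaling, against 11.7%, and 11 without the libraries labelled Trr depletion, against 13.6%. The summed level of the 31 in the table was 137 to 194 RPKM at blue gut and 298 to 353 at clear gut, and none was at 0 in any library. In this sum wild type was the lowest at blue gut, with 137 RPKM against 194 under Cmi depletion and 174 under the label Trr depletion. It was also the lowest there for brain and neuron markers (40.7 against 44.6 and 41.5), but not for midgut, muscle, fat body or salivary gland markers. Gene by gene, wild type was the lowest there in 9 of the 10 Hippo genes, 50.8% of all genes and 71.3% of those called higher. Of 17 midgut markers 15 were lower and 1 higher, with summed levels of 37717 to 43155 RPKM at blue gut and 4338 to 6048 at clear gut. Of 15 muscle markers tested 9 were lower and none higher, with summed levels of 2485 to 3198 and 234 to 1018 RPKM. Brain and neuron markers had 3 of 7 tested higher and 1 lower, at 40.7 to 44.6 and 56.1 to 57.9 RPKM. Fat body markers had 4 of 7 lower and 1 higher, and salivary gland markers none of 6. The part of these tissues in the changes of the Hippo genes was not tested. In RNA of whole larvae, a change in the share of a tissue and a change in RNA per cell cannot be told apart.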

How the data were processed

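The data are 1 table of RPKM for 6 libraries, with a gene length in bases. The authors deposited RPKM, and per the labels' protocols reads were aligned with SOAPaligner/SOAP2. Per the submitters' processing notes Bowtie and the build dm6 were used, with no role given. The sources used here name no counter, annotation or version. A dash was read as 0. Depth was found as the number at which values under 3 RPKM in genes under 3000 bases become whole reads: 82.7% to 83.9% lay within 0.1 of a whole read, and 99.98% to 100% within 0.1 of one once reads shared equally by a pair of genes were allowed. Whole-read counts were rounded from this for the intervals (scipy 1.17.1), which cover counting error only.

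Fits used limma 3.58.1 in R 4.3.3 (lmFit, eBayes with trend and robust) on log2(RPKM + 1), which understates changes of low genes, for genes averaging 1 RPKM or more, two-sided at 0.05, with 2 residual degrees of freedom and a median residual SD of 0.18. The fit was checked on simulated data. P-values rest on the residual of the additive fit, the extent to which the stage difference varies between genotypes, not on the spread between pools. Coordinates are from the Ensembl annotation of BDGP6, the assembly named dm6. Named genes were all 10, up to 4 called genes per further list by size of change, and the 5 nearest profiles. The members, lists and tests were chosen with earlier results of these data known, and the lists of targets and markers come from general knowledge. In the lists, alpha-Spec, Trl, bantam, Syx1A and ChAT were not matched. Alternatives were 2 scalings, 2 pseudocounts, 2 filters, plain eBayes, no genotype term, and leaving out libraries.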

Additional observations from a re-analysis of the deposited data

Results flagged for a closer look

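In 8 cases the difference from wild type went opposite ways at the stages, with both counting intervals leaving out 1. The difference between the stages was not tested, since each ratio rests on 2 libraries. In Cmi depletion kibra stood at 2.48 times wild type at blue gut and 0.807 times at clear gut, and ft at 1.28 and 0.923 times. In the libraries labelled Trr depletion the pairs of ratios were 2.07 and 0.733 for kibra, 1.51 and 0.744 for ds, and 1.5 and 0.897 for ex. They were 1.38 and 0.778 for crb, 1.25 and 0.89 for hpo, and 1.17 and 0.697 for ft. Among all genes tested, 7.45% (Cmi depletion) and 9.93% (Trr depletion, by label) were above wild type at blue gut and below it at clear gut by the same measure. The 8 cases share the 2 wild-type libraries. With median-ratio scaling, chosen for these intervals after seeing the data, the ratios of these 8 cases stayed above 1 at blue gut (1.03 to 2.42) and below 1 at clear gut (0.618 to 0.796). The interval of ft at blue gut in the library labelled Trr depletion then held 1 (0.935 to 1.13), so that 7 of the 8 met the rule. A further 4 genes in Cmi depletion (ex, ds, crb and fj) and wts under the label Trr depletion met it under that scaling alone.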

How the results depend on the processing

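Of the 10 genes, 7 were called higher at clear gut, and 4 with median-ratio scaling. With 1 library left out, which always leaves 1 residual degree of freedom, the count was 0 to 7, and 0 to 2409 of all genes were called higher. It was 0 without either wild-type library, fits with the same log2 changes, where 0 of all genes were called. Under the other settings 5 to 8 were called, and none was called lower. The genotype comparisons called 0 of the 10 under every setting run. The genes above wild type at blue gut and below it at clear gut numbered 2 in Cmi depletion as deposited and 6 with median-ratio scaling, and 6 under both for the libraries labelled Trr depletion. The log2 change of Mer between the stages turned from 0.20 to -0.0181 with median-ratio scaling. Without single libraries, that of Mer in Cmi depletion ranged from -0.0759 to 0.0365, that of kibra there from -0.26 to 1.05, that of ft in the libraries labelled Trr depletion from -0.380 to 0.0934, and that of ds between the depletions from -0.572 to 0.0247. Replicates could not be paired, since each group holds 1 library and the labels carry no replicate numbers. The stage comparison takes the libraries of a genotype together through its genotype term. Without that term, kibra was called as well (adjusted p = 0.0437). Depth does not limit the levels of the 10, each at 339 reads or more, but with 1 library a group the spread between pools is unknown.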
